A study of Rattus norvegicus with 16 samples.

Results

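The genes described here are 10 members of the transforming growth factor beta (TGF-beta) superfamily and its receptors: the ligands Tgfb1, Tgfb2, Tgfb3, Inhba, Gdf15, Bmp2, Bmp4 and Bmp6 and the receptors Tgfbr1 and Tgfbr2. They were taken as every non-control probe whose gene name in the scanner files was that of a member, which gave 10 probes of 9 genes, out of 30367 probes of 26583 gene names. Tgfbr2 was not analysed here. Gene expression was measured in the whole hippocampus of 16 adult male Sprague-Dawley rats, 1 rat per 1-colour Agilent array, 24 h after injury or its equivalent. The Naïve group (3 arrays) was neither injured nor treated, the Sham group (2 arrays) was anesthetized and prepared without injury, and the TBI group (3 arrays) received a severe parasagittal fluid percussion, a pressure pulse against the brain that models traumatic brain injury. The remaining groups received the same injury and a drug: TBI+PMI (PMI-006 by oral gavage, 3 arrays), TBI+JM6 (JM6, a compound directed at the kynurenine pathway, by oral gavage, 3 arrays) and TBI+E33 (estrogen, 2 arrays, given subcutaneously by the labels and intraperitoneally by the methods). Whether the TBI rats received a vehicle is not given in the sources used here.

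Ligands of this superfamily are secreted dimers that bring together type I and type II serine/threonine kinase receptors, which phosphorylate Smad transcription factors. TGF-beta and activin ligands signal mainly through other Smads than bone morphogenetic proteins (BMPs) do, and latency proteins and soluble antagonists control how much ligand reaches the receptors. In brain, Tgfb1 is known mainly from microglia and injured tissue, the activin subunit gene Inhba from active neurons, and Bmp6 and Gdf15 among others from non-neuronal compartments such as the meninges and the choroid plexus.

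Each array value rests on 60-base probes, and 5 of them are shown because the results below turn on these genes. The Tgfb1 probe lies at chr1:80910123-80910182 on the plus strand of rat build rn4 and was printed at 10 spots per array, while every other member probe had 1 spot. The Inhba probe (chr17:57244565-57244624, minus strand) and the Bmp6 probe (chr17:32380203-32380262, minus strand) cover the end of the coding sequence, where ligands of this superfamily carry a cysteine, another residue and a cysteine; these codons are in capitals. The Bmp2 probe (chr3:121381127-121381186, plus strand) and the Bmp4 probe (chr15:22283362-22283421, minus strand) cover the same stretch of these closely related ligands, and capitals mark the bases that they share in an overlap of 46 bases. No base of the Tgfb1 probe is singled out.
Tgfb1: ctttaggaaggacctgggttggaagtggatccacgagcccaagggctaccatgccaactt
Inhba: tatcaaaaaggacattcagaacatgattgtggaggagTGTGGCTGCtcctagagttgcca
Bmp6: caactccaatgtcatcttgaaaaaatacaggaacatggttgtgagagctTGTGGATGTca
Bmp2: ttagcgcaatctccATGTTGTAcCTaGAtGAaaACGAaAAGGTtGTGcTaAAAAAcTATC
Bmp4: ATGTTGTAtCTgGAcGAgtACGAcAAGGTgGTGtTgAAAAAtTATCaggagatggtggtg
Bmp2 and Bmp4 shared 36 bases of that overlap, the closest ungapped match between any 2 of the 10 member probes; the next closest, Bmp4 with Bmp6, shared 28 bases of 43.

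The arrays were scanned in 2 sessions. Naïve, Sham and TBI arrays, on 2 slides, made up the first session and had 16569 to 18479 probes well above background by the scanner software's flag. The drug arrays, on the other 2 slides, made up the second and had 20266 to 25035. All values are log2 signals relative to the 75th percentile of the probes well above background on the same array. Against TBI, the median of all tested probes was shifted by 1.0 in TBI+JM6, 0.79 in TBI+PMI and 1.08 in TBI+E33 on the log2 scale. The drug and the scan session cannot be told apart in these 3 comparisons, so they are described last and relative to that shift. Of 5 hippocampal principal cell markers (Prox1, Zbtb20, Wfs1, Neurod2, Neurod6), at least 4 were well above background on all arrays of every group. The summed linear signal of 8 choroid plexus markers was 77.1 on the array of Naïve rat 2, 122 on Sham rat 1 and 153 on TBI+PMI rat 1, and between 0.226 and 7.70 on the other arrays, with 2 to 4 of the 8 above background on all arrays of a group.

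**Figure D1:**
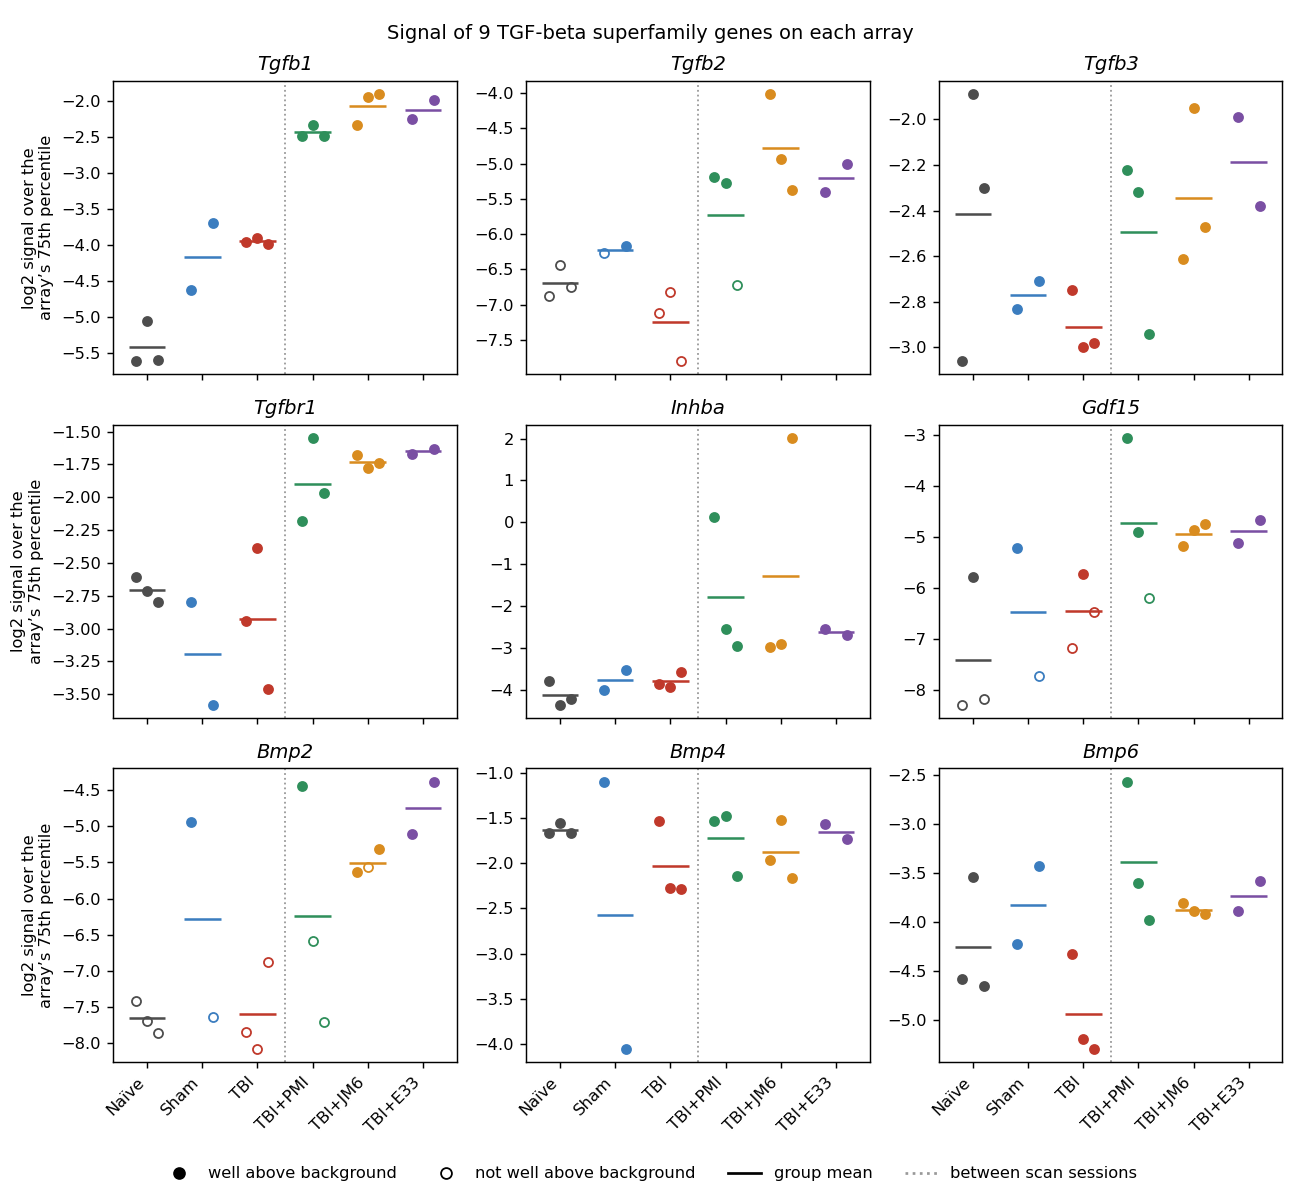
Log2 signal of each member's brightest probe, relative to the array's 75th percentile, on all 16 arrays by group. Filled points are well above background, open points are not, bars are group means and the dotted line separates the 2 scan sessions; in the first session only Tgfb1 has Naïve arrays (-5.61 to -5.05) that all lie below every Sham and TBI array (-4.62 to -3.70).

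Tgfb1, the ligand that gives the family its name, was higher in the hippocampus of both TBI and Sham rats than in that of Naïve rats. Its log2 signal was -5.61, -5.05 and -5.60 in the Naïve rats, -4.62 and -3.70 in the Sham rats and -3.96, -3.90 and -3.98 in the TBI rats. The TBI arrays lay close together and above every Naïve array, and the Sham arrays lay on either side of them. TBI exceeded Naïve by 1.47 on the log2 scale (SE 0.23, limma adjusted p = 0.00695), a 2.77-fold difference. Sham exceeded Naïve by 1.26 (SE 0.26, limma adjusted p = 0.0134), a 2.39-fold difference. TBI and Sham differed by 0.21 (SE 0.26, limma adjusted p = 0.638), and their arrays overlapped. Tgfb1 was the only member called in each of the first 2 comparisons, that is 1 of 9 tested, where 4.71% of all probes were called in TBI versus Naïve (2.98% as higher in TBI) and 8.08% in Sham versus Naïve (6.56% as higher in Sham). In whole tissue, more cells of a type and more RNA per cell cannot be told apart.

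The differences from Naïve were also present within slides. On slide 2 the TBI arrays exceeded Naïve rat 3 by 1.65, and on slide 1 the Sham arrays exceeded Naïve rats 1 and 2 by 1.17. With slide as a fixed block, however, the adjusted p of Tgfb1 was 0.319 for TBI versus Naïve and 0.231 for Sham versus Naïve, in a fit that called 0.188% and 0.0658% of all probes. Over all alternative settings the adjusted p ran from 0.00236 to 0.459 in the former and from 0.00558 to 1 in the latter, with normexp background correction giving 0.95 and 0.52 as the log2 differences and calling 0.175% and 0.0614% of all probes. The call between Sham and Naïve also rested on Sham rat 2, without which Tgfb1 differed by 0.80 (SE 0.26, limma adjusted p = 0.141).

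Tgfb1 was dim in Naïve tissue. The probe's intensity averaged 33.1 over the Naïve arrays, 87.9 over the Sham arrays and 93.8 over the TBI arrays. It was well above background on all 16 arrays, but on Naïve rats 1 and 3 only 7 of its usable spots carried that flag. The SD of log2 intensity over the spots of an array was between 0.04 and 0.27, which is the technical spread within an array and not that between rats. The summed signal of 7 microglial markers (Aif1, Itgam, Cx3cr1, P2ry12, Csf1r, Tmem119, Cd68), all well above background on every array, ran from 5.08 to 5.64 in Naïve, was 5.70 and 8.74 in Sham, and ran from 6.96 to 9.33 in TBI. The markers moved in both directions: in TBI versus Naïve Cd68, a phagocyte lysosome gene, was called at 2.22 and no other was called, with Tmem119 at -1.21 and P2ry12 at -0.36, and in TBI versus Sham 2 of 7 were called higher and 2 lower. Sham rat 2 was the higher of the Sham rats in both the markers and Tgfb1. The summed signal of 8 leukocyte markers ran from 0.153 to 0.179 in Naïve, from 0.332 to 0.482 in Sham and from 0.688 to 3.27 in TBI, with 3 to 5 of the 8 above background on all arrays of these groups and the neutrophil enzyme gene Mpo above background on none of the arrays. The part of these cells in the Tgfb1 difference was not tested. After the session means were subtracted, genes were ranked by likeness to Tgfb1 over the 16 arrays, among 14295 probes well above background on all arrays. Members, other pathway genes, cell type markers and probes named only by a database identifier were left out of the ranking. The most alike genes were then Clic4, a chloride intracellular channel gene (Pearson r = 0.95), and Bid, a proapoptotic member of the BCL2 family (r = 0.93).

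**Figure D2:**
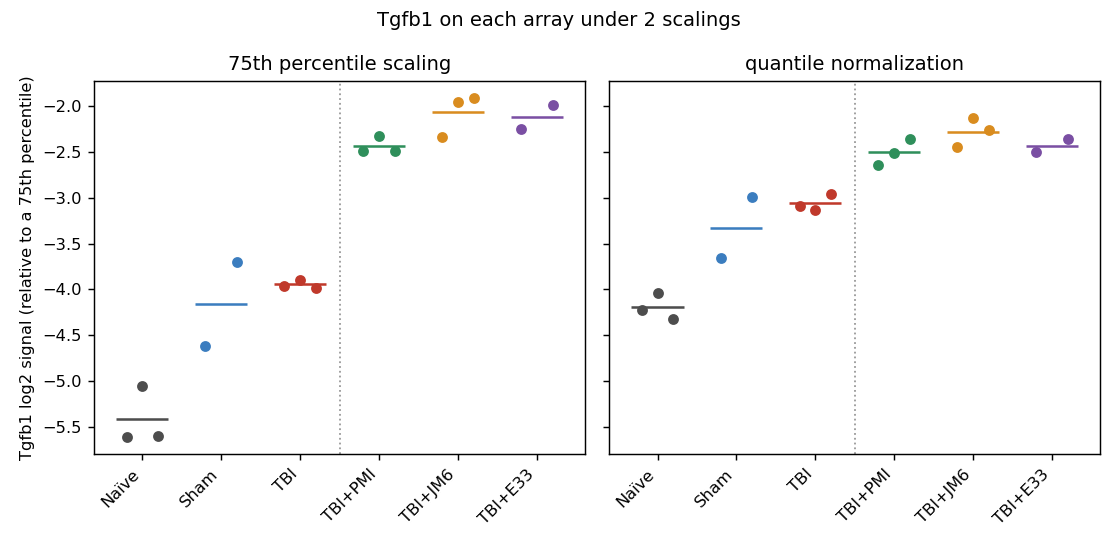
Log2 signal of Tgfb1 on each array by group, scaled to each array's 75th percentile (left) or quantile normalized (right), with bars at group means. The Naïve arrays are lowest under both scalings, and TBI exceeds Naïve by 1.47 on the left and 1.14 on the right.

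Tgfb2, a second TGF-beta isoform, was at the limit of detection in rats without drug. The brighter of its 2 probes was well above background on 8 of 16 arrays, of which 1, Sham rat 2, belonged to the first session. Its log2 signal was -6.88, -6.44 and -6.75 in Naïve, -6.27 and -6.17 in Sham and -7.12, -6.82 and -7.80 in TBI. Sham arrays were above the other arrays of that session, without overlap, but only Sham rat 2 was a detected level. TBI was lower than Sham by a fitted 1.03 on the log2 scale (SE 0.47), with an adjusted p of 0.188, and the value in TBI is only a bound. In the drug groups it was -5.19, -5.28 and -6.72 with PMI, -4.02, -4.93 and -5.38 with JM6 and -5.41 and -5.00 with E33. TBI+PMI rat 3 was the array without a detected level there. The second Tgfb2 probe, above background on 7 arrays, was highest in the first session on Naïve rat 2 (-5.94) and put Sham below Naïve (-0.90, SE 0.38, adjusted p = 0.178) where the brighter probe put it above (0.47, SE 0.47, adjusted p = 0.622), but the former detected no Sham array and the latter no Naïve array, so neither is a measured difference.

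Tgfb3, the third isoform, and Tgfbr1, the type I receptor for TGF-beta, were well above background on every array and were called in no comparison within a session. Tgfb3 was -3.06, -1.89 and -2.30 in Naïve, -2.83 and -2.71 in Sham and -2.75, -3.00 and -2.98 in TBI. The Naïve rats enclosed all other rats of the session, and TBI was lower than Naïve by a fitted 0.49 (SE 0.29, adjusted p = 0.369). Tgfbr1 was -2.61, -2.71 and -2.80 in Naïve, -2.80 and -3.58 in Sham and -2.94, -2.39 and -3.46 in TBI. Naïve rats were close together and the injured and sham-operated rats spread around and below them. In the drug groups Tgfb3 ran from -2.94 to -1.95 and Tgfbr1 from -2.18 to -1.55. The most alike genes were Cpne7 (a copine, r = 0.88) and Slc4a10 (a sodium bicarbonate transporter, r = 0.84) for Tgfb3 and Myo6 (an unconventional myosin, r = 0.86) and Rnpc3 (a minor spliceosome protein, r = 0.86) for Tgfbr1. The r of Myo6 is that of another probe than its brightest, which followed Tgfbr1 less closely. The brightest was -0.14 on Sham rat 2 and -0.08 on TBI rat 2, where Tgfbr1 was -3.58 and -2.39.

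Inhba, whose product forms activin A, was set apart by single rats rather than by groups. Its log2 signal was -3.77, -4.35 and -4.20 in Naïve, -3.99 and -3.53 in Sham and -3.85, -3.93 and -3.57 in TBI. In the drug groups it was 0.14, -2.55 and -2.95 with PMI, -2.96, -2.89 and 2.01 with JM6 and -2.55 and -2.69 with E33. TBI+JM6 rat 3 and TBI+PMI rat 1 stood above every other array, and the remaining drug arrays lay between -2.96 and -2.55. The 3 groups of the first session overlapped, with TBI and Sham differing by -0.03 (SE 1.21, limma adjusted p = 0.991). TBI+JM6 differed from TBI+PMI by 0.51 (SE 1.08, limma adjusted p = 0.917), and by -1.14 once TBI+JM6 rat 3 was left out and 1.47 once TBI+PMI rat 1 was.

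Outside the gene lists, the genes most like Inhba over the 16 arrays were Tiparp, an ADP-ribosyltransferase gene (r = 0.98), and Nptx2, an activity-regulated neuronal pentraxin (r = 0.97). With 2 arrays far from the others, these values mostly describe those arrays. Nptx2 was 0.70 on TBI+PMI rat 1 and 1.92 on TBI+JM6 rat 3, and from -1.34 to -0.95 on the other drug arrays. Tiparp was -0.24 and 0.79 on these rats and from -2.77 to -2.16 on the other drug arrays. Both genes were chosen for this likeness, so their values on these arrays are no separate result.

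**Figure D3:**
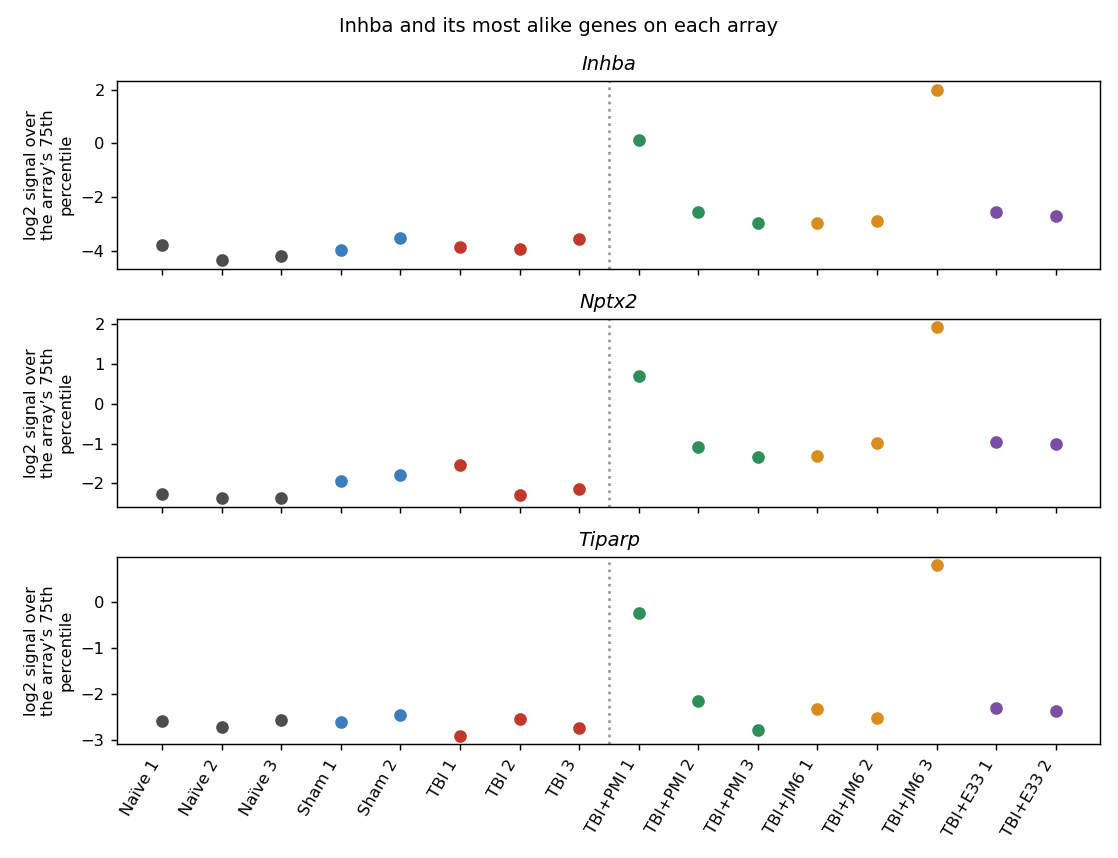
Log2 signal of Inhba and of its most alike genes Nptx2 and Tiparp on each of the 16 arrays, coloured by group, with the dotted line between scan sessions. TBI+PMI rat 1 and TBI+JM6 rat 3 stand above all other arrays in each panel.

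Gdf15, a divergent ligand induced by cell stress, was detected on 10 of 16 arrays. In the first session it was -8.30, -5.80 and -8.18 in Naïve, -7.74 on Sham rat 2 and -5.23 on Sham rat 1, and -7.18, -5.73 and -6.48 in TBI. Only Naïve rat 2, Sham rat 1 and TBI rat 2 were well above background, 1 rat in each group, and the groups overlapped. TBI exceeded Naïve by a fitted 0.97 (SE 0.84, adjusted p = 0.571). In the second session Gdf15 was -3.07, -4.91 and -6.21 with PMI, -5.19, -4.88 and -4.76 with JM6 and -5.13 and -4.67 with E33, where TBI+PMI rat 1 was highest and TBI+PMI rat 3 not above background. Naïve rat 2, Sham rat 1 and TBI+PMI rat 1 are the 3 arrays with the high choroid plexus markers; the part of that tissue in the Gdf15 signal was not tested.

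Bmp2 and Bmp4, BMP ligands of the same subgroup, differed in detection. In the first session both were highest on Sham rat 1 (-4.94 and -1.10). Bmp2 was above background on 6 arrays, and in the first session on Sham rat 1 alone. It was -7.41, -7.69 and -7.85 in Naïve, -4.94 and -7.63 in Sham and -7.84, -8.07 and -6.88 in TBI, so that no difference between these groups was a measured change in level. In the second session it was -4.45, -6.58 and -7.71 with PMI, -5.64, -5.57 and -5.32 with JM6 and -5.11 and -4.39 with E33. PMI rats spread over the widest range, with rat 1 above background and rats 2 and 3 not. Sham rat 1 and TBI+PMI rat 1 are among the arrays with high choroid plexus markers, as is Naïve rat 2, where Bmp2 was not above background. The part of that tissue in the Bmp2 signal was not tested.

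Bmp4 was among the members detected on all arrays and differed most between the Sham rats. It was -1.67, -1.56 and -1.67 in Naïve, -1.10 and -4.05 in Sham and -1.53, -2.27 and -2.29 in TBI. Sham rat 1 was the highest and Sham rat 2 the lowest of the 16 arrays. TBI differed from Sham by 0.54 (SE 0.60, limma adjusted p = 0.603). Without Sham rat 1 the difference was 2.02 (SE 0.36, limma adjusted p = 0.0279), and without Sham rat 2 it was -0.94 (SE 0.36, adjusted p = 0.175). Sham likewise differed from Naïve by -0.94 (SE 0.60, adjusted p = 0.396), and by -2.41 without Sham rat 1 (SE 0.36, limma adjusted p = 0.011). The level of Bmp4 in Sham thus depended on which of 2 rats was used. In the drug groups Bmp4 stayed between -2.16 and -1.48. The most alike genes were Tmem110 (a calcium-entry regulator of the endoplasmic reticulum, r = 0.94) and Sgcb (a sarcoglycan, r = 0.85), both over arrays that include Sham rat 2.

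Bmp6 gave the smallest unadjusted p of the members in TBI versus Sham without passing the adjusted threshold. It was -4.58, -3.54 and -4.65 in Naïve, -4.22 and -3.43 in Sham and -4.33, -5.19 and -5.29 in TBI. Every Sham array lay above every TBI array, and the Naïve arrays overlapped with both. TBI was lower than Sham by a fitted 1.11 (SE 0.44, limma adjusted p = 0.133), and by 0.52 with slide as a fixed block (adjusted p = 0.903). In the drug groups it was -2.57, -3.60 and -3.98 with PMI, -3.81, -3.89 and -3.92 with JM6 and -3.89 and -3.58 with E33, again highest on TBI+PMI rat 1.

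Ptgds, a prostaglandin D synthase gene, was the gene most like Bmp6 over the 16 arrays (r = 0.94), followed by Fhit (r = 0.91). The marker genes below and the other listed genes were left out of that ranking. Ptgds was 6.62 on Naïve rat 2, 5.52 on Sham rat 2 and 5.93 on TBI+PMI rat 1, the highest array of each of these groups, as for Bmp6. It was 4.43 and 4.52 on Naïve rats 1 and 3 and 4.69 on Sham rat 1. The summed signal of 6 meningeal fibroblast markers, all detected on every array, was 11.5 on Naïve rat 2, 5.47 on Sham rat 1, 2.42 on Sham rat 2 and 10.7 on TBI+PMI rat 1, from 0.794 to 0.881 in TBI and from 1.18 to 1.84 on the other Naïve and drug arrays. Sham rat 1, higher in both marker sums than Sham rat 2, was the lower of them in Bmp6. Without the 3 arrays high in choroid plexus markers, which leaves Sham rat 2 as the only Sham array, TBI was lower than that rat in Bmp6 by a fitted 1.5 (SE 0.36, adjusted p = 0.0782), with the spread taken from the other groups. The part of these tissues in the Bmp6 values was not tested.

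Over the 9 tested members, the injury comparison gave no call. In TBI versus Sham, 0 of 9 members passed limma's adjusted threshold, where 9.38% of all probes did. An unadjusted limma p under 0.05 was reached by 2 of 9, Bmp6 and Tgfb2, for which no share over all probes is given here. The methods' t-test with a 1.2-fold limit called 0, beside 13.5% of all probes. The members' median difference was -0.03, equal to that of all tested probes, and 4 of 9 were higher in TBI. In TBI versus Naïve the median over members was -0.22 against 0.04 over all probes, and in Sham versus Naïve it was 0.43 against 0.06, with 6 of 9 members higher in Sham. The arrays did not overlap for 2 members in TBI versus Sham, for 1 in TBI versus Naïve and for 3 in Sham versus Naïve, where the arrays of 41.8%, 23.3% and 39.5% of all tested probes did not overlap.

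The drug groups, which share a scan session, were compared with each other in 3 pairs, and no member was called in any. In TBI+JM6 versus TBI+PMI limma called 0 of 9 members and 0.0131% of all probes. There 1 member, Tgfb2, had an unadjusted limma p under 0.05, with a difference of 0.95 (SE 0.42, limma adjusted p = 0.542). The share of all probes with such an unadjusted p is not given here. The methods' t-test called 0 members (6.81% of all probes). In TBI+JM6 versus TBI+E33 (0.0175% of all probes) and TBI+PMI versus TBI+E33 (0.11%) limma called 0 of 9 members, none had an unadjusted p under 0.05, and the methods' t-test called 0 (2.71% and 15% of all probes). Tgfb1 differed by 0.37 (SE 0.23) between TBI+JM6 and TBI+PMI, by 0.05 (SE 0.26) between TBI+JM6 and TBI+E33 and by -0.32 (SE 0.26) between TBI+PMI and TBI+E33. These errors bound the differences and do not show that the compounds act alike. The SE of Inhba was 1.08 to 1.21 in these pairs, the widest among members.

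**Figure D4:**
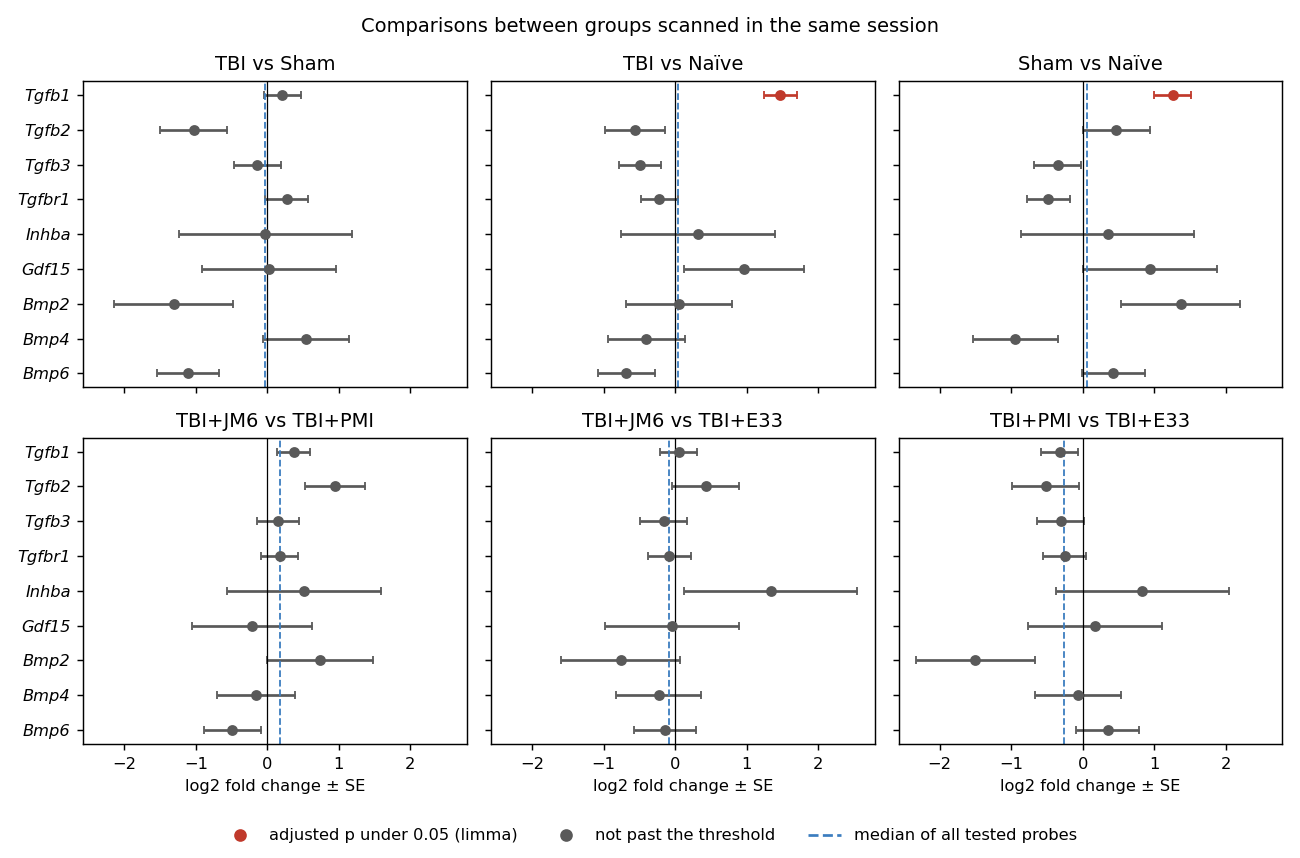
Log2 fold change of each member, first group minus second, with its SE, in the 6 comparisons between groups scanned together; the dashed line is the median of all tested probes. Only Tgfb1 in TBI versus Naïve (1.47) and Sham versus Naïve (1.26) passes the adjusted threshold.

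Against TBI, the drug groups had higher signals for 9 of 9 members, in comparisons that also cross scan sessions. The members called were Tgfb1, Tgfb2, Tgfbr1, Bmp2 and Bmp6 in TBI+JM6 (5 of 9, where 70.1% of all probes were called, 69.9% as higher) and in TBI+E33 (5 of 9, 70.3%, 70.2% as higher), and the same genes other than Bmp2 in TBI+PMI (4 of 9, 56.7%, nearly all as higher). With 9 members, these shares are not read as a difference from those of all probes. The 3 comparisons share the TBI arrays. After quantile normalization, which brought the median shift of all probes to between -0.01 and 0.00, Tgfb1 was the member still called in each, 1 of 9, where 27.2% of all probes were called in TBI+JM6 (13.9% as higher), 19.2% in TBI+PMI (9.96%) and 20.4% in TBI+E33 (10.4%).

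Tgfb1 was -2.49, -2.33 and -2.49 with PMI, -2.34, -1.95 and -1.91 with JM6 and -2.25 and -1.99 with E33, each array above every TBI array (-3.98 to -3.90). It exceeded TBI by 1.88 in TBI+JM6 (SE 0.23, limma adjusted p = 2.97e-05), 1.51 in TBI+PMI (SE 0.23, limma adjusted p = 0.000223) and 1.83 in TBI+E33 (SE 0.26, limma adjusted p = 9.21e-05). Quantile normalized, these differences were 0.78 (adjusted p = 0.00647), 0.56 (adjusted p = 0.0367) and 0.63 (adjusted p = 0.0344). Over the alternative settings the adjusted p of Tgfb1 was at most 0.0214 in TBI+JM6, but with normexp background correction it was 0.334 in TBI+PMI (difference 0.71) and 0.131 in TBI+E33 (0.99). The summed microglial signal in the drug groups was 6.96 to 11.5 and the leukocyte signal 1.67 to 3.58, both overlapping with TBI. Red blood cell, choroid plexus, thalamus, oligodendrocyte and hippocampal principal cell sums overlapped with TBI as well. The remaining sums, given next, were higher than in TBI without overlap. Astrocytes were at 30.4 to 52.8 against 25.5 to 25.8 (6 of 6 markers detected on all arrays) and endothelial cells at 3.65 to 5.81 against 2.82 to 2.99 (6 or 7 of 7). Neurons were at 15.1 to 18.8 with PMI, 18.0 to 21.3 with JM6 and 18.1 to 18.6 with E33 against 9.62 to 14.6 (5 of 5 on the array). Mural cells (1.13 to 1.65 against 0.885 to 1.05) and meningeal fibroblasts (1.18 to 10.7 against 0.794 to 0.881) did not overlap with TBI either. These sums also cross scan sessions, with the median of all probes shifted by 0.79 to 1.08 on the log2 scale. Of 6 astrocyte markers limma called 2 in TBI+JM6, 1 in TBI+PMI and 4 in TBI+E33 (70.1%, 56.7% and 70.3% of all probes). The part of these cells in the Tgfb1 difference was not tested.

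The other calls against TBI did not survive the change of scaling. Where a probe was above background on none of the TBI arrays, the difference is a lower bound set by the dimmest detected probe of each TBI array: in TBI+JM6 Tgfb2 was higher at least 2.28-fold, and at least 1.18-fold in TBI+PMI and 1.70-fold in TBI+E33, and Bmp2 at least 1.37-fold in TBI+JM6 and 2.32-fold in TBI+E33, before any allowance for the session. In TBI+PMI 2 of 3 arrays measured Tgfb2 and in TBI+JM6 2 of 3 measured Bmp2, and the limma adjusted p was 0.000273, 0.00839 and 0.00219 for Tgfb2 and 0.0243 and 0.00905 for Bmp2 in the order above. After quantile normalization the fitted differences were 0.60, -0.03 and -0.16 for Tgfb2 and 0.00 and 0.52 for Bmp2. Tgfbr1 exceeded TBI by 1.03 to 1.28 on the log2 scale and by 0.23 to 0.25 after quantile normalization. Bmp6 exceeded it by 1.06 in TBI+JM6 and 1.2 in TBI+E33, where quantile normalization gave -0.51 and -0.57, and by 1.55 in TBI+PMI, where it gave 0.33. Leaving out 1 array ended the Bmp2 call in TBI+JM6 (without TBI rat 1, TBI rat 2 or TBI+JM6 rat 3, with differences from 1.85 to 1.99) and in TBI+E33 (without TBI+E33 rat 2, 2.48), and the Bmp6 call in TBI+JM6 and TBI+E33 (0.89 to 1.36 where lost).
Inhba exceeded TBI by 2.5 in TBI+JM6 (SE 1.08, limma adjusted p = 0.0545), by 3.34 without TBI+JM6 rat 1 (adjusted p = 0.0214), by 3.31 without TBI+JM6 rat 2 (adjusted p = 0.0252) and by 0.86 without TBI+JM6 rat 3 (adjusted p = 0.28).

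**Figure D5:**
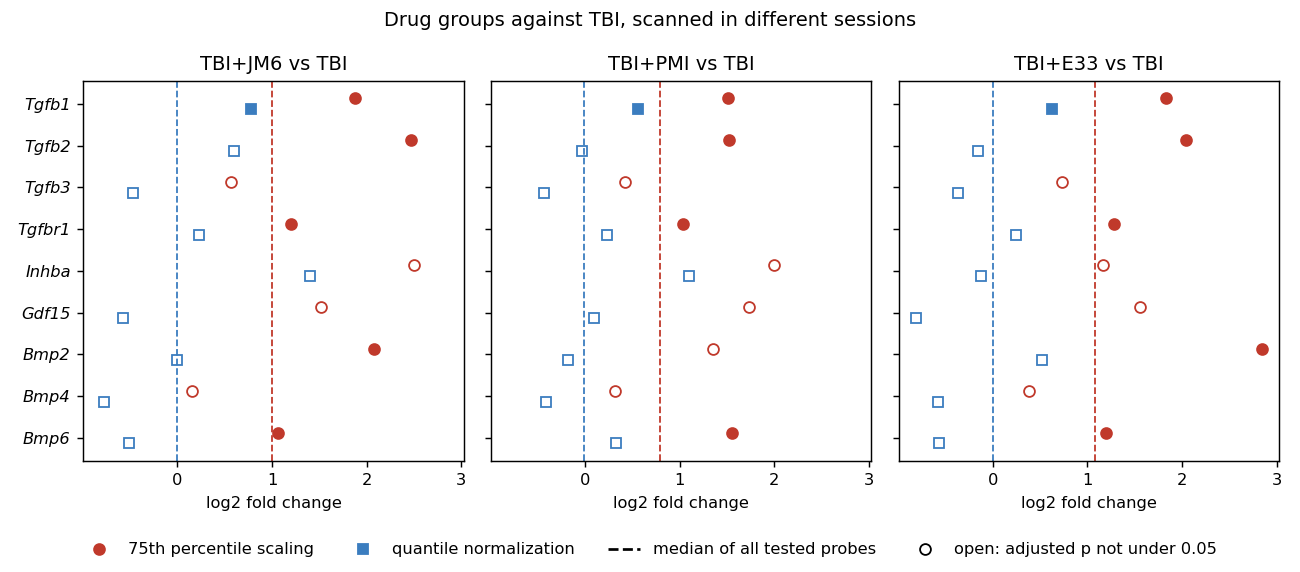
Log2 fold change of each member in the 3 drug groups against TBI, with 75th percentile scaling (circles) and quantile normalization (squares); filled symbols pass the adjusted threshold and dashed lines mark the median of all tested probes under each scaling. The medians are 0.79 to 1.08 for the circles and -0.01 to 0.00 for the squares, and only the squares of Tgfb1 (0.56 to 0.78) are filled.

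Among 84 other genes of the pathway, 76 had a named probe and 63 were tested. In TBI versus Sham 9 of these 63 were called, 2 higher and 7 lower, beside 2.92% of all probes called higher and 6.46% lower. In TBI versus Naïve 5 were called (1 higher, 4 lower, beside 2.98% and 1.73% of all probes) and in Sham versus Naïve 5 (4 higher, 1 lower, beside 6.56% and 1.51%). In TBI+JM6 versus TBI+PMI, TBI+JM6 versus TBI+E33 and TBI+PMI versus TBI+E33 limma called 0 other pathway genes (0.0131%, 0.0175% and 0.11% of all probes). An unadjusted limma p under 0.05 was reached by 3, 2 and 8 of the 63, for which no share over all probes is given here. The methods' t-test called 4, 2 and 7 of them, beside 6.81%, 2.71% and 15% of all probes. The median difference of the other pathway genes was -0.04 in TBI versus Sham, -0.03 in TBI versus Naïve and 0.09 in Sham versus Naïve, each within 0.1 of that of all probes. With normexp background correction, or with slide as a fixed block, 0 were called in each of these 3 comparisons, where normexp called 0.0175%, 0.175% and 0.0614% of all probes and the slide block 0.136%, 0.188% and 0.0658% in TBI versus Sham, TBI versus Naïve and Sham versus Naïve. With the slide block Gdf10 and Dcn differed by -2.55 and -1.67 in TBI versus Naïve and Acvr2b by -1.39 in Sham versus Naïve. The count in TBI versus Sham was 1 without Sham rat 1, 4 without Sham rat 2, 3 without TBI rat 2 and 2 without TBI rat 3, that in TBI versus Naïve was 2 without Naïve rat 1 or TBI rat 3 and 8 without TBI rat 1, and that in Sham versus Naïve was 3 without Naïve rat 1 or either Sham rat. Of the calls described below, those of Gdf10 and Dcn in TBI versus Naïve and of Twsg1 in Sham versus Naïve held with any 1 array left out (highest adjusted p 0.0249, 0.0278 and 0.0498), and each of the others was lost without some array.

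Of 15 other ligands tested, Gdf10, a relative of Bmp3, was lower in TBI than in both control groups. Its log2 signal was -4.52, -3.08 and -3.66 in Naïve, -4.23 and -3.82 in Sham and -5.84, -6.72 and -6.06 in TBI, where TBI rat 1 alone was above background. TBI lay below all control arrays, by 2.18 against Sham (SE 0.41, limma adjusted p = 0.0111) and 2.45 against Naïve (SE 0.37, limma adjusted p = 0.00595). Inha, the inhibin alpha subunit, was lower in TBI than in Naïve by 0.86 (SE 0.19, limma adjusted p = 0.0245).

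Of 12 other receptors tested, Ret, the receptor tyrosine kinase that signals for GDNF ligands and, with a co-receptor, for Gdf15, was higher in TBI. It was -6.04, -3.73 and -4.70 in Naïve, -4.78 and -4.03 in Sham and -2.70, -2.06 and -2.20 in TBI. All TBI arrays were above all control arrays, by 2.08 against Sham (SE 0.56, limma adjusted p = 0.0377) and 2.5 against Naïve (SE 0.50, limma adjusted p = 0.0184). The activin type II receptor Acvr2b was lower than Naïve both in TBI (by 1.14, SE 0.26, limma adjusted p = 0.0276) and in Sham (by 1.30, SE 0.29, limma adjusted p = 0.0183), with Naïve at -1.38, -1.96 and -1.93 and the Sham and TBI arrays between -3.33 and -2.63. The activin type I receptor Acvr1b was above background on both Sham arrays (-5.22 and -4.63) and on none of the Naïve arrays, at least 2.18-fold higher in Sham (limma adjusted p = 0.0126). That limit was 2.67 without Sham rat 1 and 1.78 without Sham rat 2. The TBI arrays were also above background (-5.69, -5.70 and -5.15) and overlapped with Sham.

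Of 16 latency proteins and antagonists tested, 5 were lower in TBI than in Sham (6.46% of all probes) and none was higher (2.92%). Against Naïve, 1 of the 16, Dcn, was lower in TBI and none was higher. Dcn, decorin, a proteoglycan that binds TGF-beta, was -1.13, -0.58 and -1.09 in Naïve, -0.93 and -0.98 in Sham and -3.16, -2.27 and -2.87 in TBI. TBI lay below all control arrays, by 1.81 against Sham (SE 0.31, limma adjusted p = 0.00828) and 1.83 against Naïve (SE 0.28, limma adjusted p = 0.00625). The summed meningeal fibroblast signal was also lowest in TBI (0.794 to 0.881, against 1.2 to 11.5 in Naïve and 2.42 to 5.47 in Sham), and its part in the Dcn difference was not tested. Fstl1, a follistatin-like protein, was lower in TBI than in Sham by 1.41 (SE 0.28, limma adjusted p = 0.0138). Its Naïve arrays (-4.11 to -3.61) overlapped with TBI (-4.78 to -4.02), and Sham was the highest group of the session (-3.11 to -2.94).
Lrrc32, which holds latent TGF-beta at the cell surface, was above background in the first session only on the Sham arrays (-2.98 and -5.00), at least 3.93-fold lower in TBI (limma adjusted p = 0.028) and at least 4.15-fold higher in Sham than in Naïve (limma adjusted p = 0.025). Twsg1, a secreted BMP-binding protein, showed the same detection pattern (-4.96 and -5.92 in Sham), at least 1.44-fold lower in TBI (limma adjusted p = 0.0318) and at least 1.52-fold higher in Sham than in Naïve (limma adjusted p = 0.00532). These limits rest on the brighter Sham rat: without Sham rat 1 they fell to 1.95 against TBI and 2.06 against Naïve for Lrrc32 and to 1.04 and 1.09 for Twsg1. Grem1, a BMP antagonist named after its value was seen, was lower in TBI than in Sham by 1.06 (SE 0.30, limma adjusted p = 0.0428). Its Naïve arrays (-3.60 to -2.79) likewise overlapped with TBI (-4.00 to -3.25), with Sham at -2.73 to -2.54. Of 5 neuronal markers 2 were called higher in Sham than in Naïve, and of 5 hippocampal principal cell markers 1, beside 6.56% of all probes. In the same comparison 1 of 7 microglial, 1 of 6 tested leukocyte and 1 of 6 astrocyte markers were called higher. The summed signal of 6 oligodendrocyte markers was 110 and 115 in Sham, 82.2 to 117 in Naïve and 54 to 109 in TBI. It thus overlapped between Sham and Naïve, where 1 of the 6, Mobp, was called. The summed signal of 5 neuronal markers was 17.7 and 18.6 in Sham, 11.6 to 11.8 in Naïve and 9.62 to 14.6 in TBI. Among the markers called, the vesicular glutamate transporter gene Slc17a7 was higher in Sham than in Naïve by 1.43 (limma adjusted p = 0.0235). The myelin gene Mobp was higher by 1.75 (limma adjusted p = 0.0238). TBI was below Sham by 1.43 in Slc17a7 and 1.95 in Mobp. The part of these cells in the values of Lrrc32, Twsg1, Acvr1b and Smad2, whose mean was likewise highest in Sham within the session, was not tested.

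Of 11 Smads and Smad regulators tested, Smad2, a mediator of TGF-beta and activin signals, was highest in Sham, at -4.78, -5.27 and -5.20 in Naïve, -4.12 and -3.87 in Sham and -4.79, -4.58 and -4.96 in TBI. Sham arrays lay above all others of the session, by 1.09 over Naïve (SE 0.22, limma adjusted p = 0.013), and TBI was below Sham by 0.78 (SE 0.22, limma adjusted p = 0.0463). Tgif1, a Smad corepressor, was higher in TBI than in Sham by 1.22 (SE 0.35, limma adjusted p = 0.0475); this value and that of Smad2 in TBI versus Sham were chosen after they were seen. Of 9 target genes tested, among them Id1 and Tgfbi, limma called 0 in any comparison within a session. It called 9.38%, 4.71% and 8.08% of all probes in TBI versus Sham, TBI versus Naïve and Sham versus Naïve. There 2, 1 and 1 target genes had an unadjusted limma p under 0.05, for which no share over all probes is given here. The methods' t-test called 1, 1 and 0 (13.5%, 13.9% and 16% of all probes). Between drug groups 0 target genes had an unadjusted limma p under 0.05. The methods' t-test called 1 in TBI+JM6 versus TBI+PMI (6.81% of all probes). It called 0 in TBI+JM6 versus TBI+E33 and TBI+PMI versus TBI+E33 (2.71% and 15%).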

How the data were processed

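Hippocampal RNA of 16 rats was hybridized to 1-colour Agilent rat arrays, 1 rat per array, in groups of 3, or 2 for Sham and TBI+E33. Per the labels, RNA was amplified with either of 2 kits, and the kit used for each rat is not given in the sources used here. The deposited intensity values were made by the authors with Agilent Feature Extraction 9.5.3.1, which subtracted background within each array; array precision is limited by the number of arrays. The authors' table gives each probe as a ratio to the 75th percentile of its array, with all arrays brought to the same distribution, and served as an alternative.

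Control spots and outlier-flagged spots were left out and spots of a probe averaged. A probe counted as well above background when at least 0.5 of its usable spots were flagged so. Log2 intensity was taken relative to the 75th percentile of probes well above background, and 22832 probes were tested, those detected so on all arrays of 1 or more groups. Differences were tested with limma 3.58.1 (R 4.3.3) in a fit over all 16 arrays (10 residual degrees of freedom), with Benjamini-Hochberg adjustment over all tested probes and a threshold of 0.05 on the adjusted p. The brightest probe stood for a gene, except in the ranking of most alike genes. The methods' t-test (unadjusted p under 0.05, 1.2-fold) was an alternative, as were normexp background correction (offset 50), scaling by quantiles or by a 75th percentile of all probes, other filters, fits of the compared groups alone, slide and replicate blocks and leaving out each array. The scripts were tested on simulated data. A group undetected on every array has only a bound, and a fold against it, written as "at least", compares the bright group's mean with the mean, over the dim arrays, of the higher of the lowest signal detected on that array and the probe's own.

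The pathway genes named were those called within a session, with values for at most the 6 of largest change per comparison. The most alike genes were the 2 with the highest Pearson r, each by whichever of its probes gave the highest. Members, pathway genes, cell type markers and probes named only by a database identifier were left out of that ranking. The members and gene lists were chosen with earlier results of these data known. Nothing says that the rats came from separate experiments, so p-values measure the spread between these rats. Same-numbered replicates did not deviate together (36 pairs, r from -0.19 to 0.18). Probe sequences and rn4 positions come from the scanner files, and no promoter was examined.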

Additional observations from a re-analysis of the deposited data

How the results depend on the processing

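With normexp background correction, 0 members were called in TBI versus Naïve and Sham versus Naïve (0.175% and 0.0614% of all probes). It called 1 member in TBI+JM6 versus TBI and 0 in TBI+PMI and TBI+E33 versus TBI (21.5%, 6.28% and 14% of all probes). For other pathway genes it gave 0 in each comparison of the first session. In TBI+JM6, TBI+PMI and TBI+E33 versus TBI, quantile normalization and the authors' matrix each left 1 member. The former called 27.2%, 19.2% and 20.4% of all probes there and the latter 27%, 19% and 20.6%. The 75th percentile over all probes left 2, 1 and 2 members (43.8%, 35.8% and 40.4% of all probes). For other pathway genes in Sham versus Naïve quantile normalization gave 2 (5.76% of all probes) and the matrix 3 (6.43%). In TBI versus Sham the matrix and the absence of a filter each gave 5 other pathway genes (8.55% and 4.61% of all probes). In TBI versus Naïve the percentile over all probes gave 8 (8.09%). The methods' t-test gave 0 members in Sham versus Naïve. It gave 14, 15 and 10 other pathway genes in TBI versus Sham, TBI versus Naïve and Sham versus Naïve (13.5%, 13.9% and 16% of all probes). After Benjamini-Hochberg adjustment it gave 0 members in TBI versus Naïve and Sham versus Naïve (0.00438% and 0% of all probes). It then gave 1 member in TBI+PMI versus TBI (35.5%), and 0 other pathway genes in each comparison of the first session. With limma on the compared groups alone, 0 members were called in TBI versus Naïve and Sham versus Naïve and 8 in TBI+E33 versus TBI (64.5% of all probes). Other pathway genes called were 0, 0 and 2 in TBI versus Sham, TBI versus Naïve and Sham versus Naïve (0.0439%, 0.0657% and 1.33% of all probes). With slide as a fixed block, 0 members and 0 other pathway genes were called in TBI versus Naïve and Sham versus Naïve (0.188% and 0.0658% of all probes). In TBI versus Sham it gave 0 other pathway genes (0.136%), and slide as a random block gave 14 (16.7%).

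The replicate number as a block moved the other pathway genes called in TBI versus Sham from 9 to 4 (9.38% to 6.77% of all probes). It moved the members called in TBI+E33 versus TBI from 5 to 4 (70.3% to 68% of all probes). The numbers do not pair the rats. Without the 3 arrays high in choroid plexus markers, a setting chosen after seeing the data that leaves Sham rat 2 as the only Sham array, 2 members were called in Sham versus Naïve (Tgfb1 and Bmp4) and 0 other pathway genes in TBI versus Sham and Sham versus Naïve (0.646% and 1.59% of all probes).

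Bmp2 in TBI+JM6 versus TBI turned to -0.25 with the authors' matrix. Bmp6 turned to -0.51 with quantile normalization and -0.48 with the matrix in TBI+JM6, and to -0.57 and -0.54 in TBI+E33. Tgfb2 turned to -0.25 with normexp and -0.03 with quantile normalization in TBI+PMI, and to -0.16 with quantile normalization in TBI+E33. Quantile normalization moved the median of all probes from between 0.79 and 1.08 to between -0.01 and 0.00 in these comparisons. Bmp2 and Tgfb2 were above background on none of the TBI arrays, so their signs are not measured changes.

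Leaving out 1 array at a time gave 0 to 1 members in TBI versus Sham, 1 in TBI versus Naïve, 0 to 2 in Sham versus Naïve, 0 in each drug pair, 3 to 5 in TBI+JM6, 4 to 6 in TBI+PMI and 3 to 5 in TBI+E33 versus TBI. Other pathway genes numbered 1 to 12 in TBI versus Sham, 2 to 8 in TBI versus Naïve and 3 to 6 in Sham versus Naïve. Where this left 1 Sham or TBI+E33 array, its spread was taken to be that of the other groups. The share of all probes called with 1 array left out is not given here, so these counts have no background to stand beside. Levels of Tgfb2, Bmp2 and Gdf15 in the first session are limited by background.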
